A study of Mus musculus with 3 samples.

Results

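The genes described here are 10 transcription factors that specify the cranial neural crest, *Pax3*, *Tfap2a*, *Tfap2b*, *Foxd3*, *Sox9*, *Sox10*, *Snai1*, *Snai2*, *Twist1* and *Ets1*. They were chosen by name from what is known of the crest, with earlier results of these data known. All 10 were found among the 24062 genes of the count tables. RNA-Seq, which counts sequenced cDNA reads per gene, was done on the rostrum, the front of the head, of mouse embryos at E9 staged in the sample records at 18 to 22 somites, a range whose lower end differs between the study's sources. One condition was *tuft*, embryos homozygous for a spontaneous nonsense mutation in *Tet1* that had curled anterior neural folds, and the other was the wild-type background strain 3H1 Balb, in which the mutation arose. For each condition RNA of 3 embryos was pooled and 1 column of counts was analyzed, so no value has a replicate error and no test of a difference was possible. Since 2 *tuft* samples stand in the records, the single mutant column could hold either of them or both together.

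Neural crest cells arise at the border between neural plate and surface ectoderm, where WNT, BMP and FGF signals switch on border factors such as PAX3 and the AP-2 proteins. Specifier factors such as FOXD3, SOX9 and SOX10 then set the identity of the cells. SNAI1, SNAI2, TWIST1 and ETS1 act in the epithelial-to-mesenchymal transition by which the cells leave the neural folds, and in the head these cells go on to form bone, cartilage, nerves and pigment cells. TET1 oxidizes 5-methylcytosine, a step toward removing methyl groups from CpG sites in DNA.

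Counts on genes summed to 6433067 in *tuft* and 14251942 in wild type, a depth 2.22 times greater in wild type. Levels are given as normalized CPM, counts per 1000000 counts on genes after each total was multiplied by its TMM factor, which was 0.872 in *tuft* and 1.15 in wild type. Intervals are 95% intervals, exact Poisson for levels and Clopper-Pearson for folds, ratios and shares. They cover counting error only, since 1 column of counts was analyzed per condition. Reads carried no molecular identifiers, so copies of the same molecule were counted as separate reads. *Tet1* itself (chr10:62804570-62887469, GRCm38) had 32 *tuft* and 435 wild-type counts, 4.67 times lower in *tuft* after normalization (fold 0.214, interval 0.145 to 0.307). The gene *Gm51805* overlaps *Tet1*, and without a stated strand setting the reads of both cannot be told apart. All 10 crest factors had counts in wild type, and *Foxd3* and *Snai2* had 0 in *tuft*. In pooled whole tissue, fewer crest cells and less RNA per crest cell cannot be told apart.

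The 10 factors differed from wild type in both directions. *Sox9*, *Sox10* and *Twist1* were more than 2-fold higher in *tuft*, *Pax3*, *Snai1* and *Snai2* were more than 2-fold lower, and *Tfap2a*, *Tfap2b* and *Ets1* lay within 2-fold. *Foxd3*, with 0 counts in *tuft*, was not past 2-fold when set at the floor described next, and its difference could be larger. Counts below a floor of 3 were set to 3 for these calls, which covered the 13979 genes whose counts in the libraries came to 10 or more in sum. Of those genes 21.3% were past 2-fold higher and 37.5% past 2-fold lower, so the 30% of the crest factors found on each side lay near this background. With library totals in place of TMM, the lower genes made up 74.4% of all genes past 2-fold, against 63.8% with TMM. Among 8 factors with at least 100 counts in either library, 3 were higher and 2 lower, beside 22.8% and 32.7% of the 10442 genes at that depth. The median log2 fold change, *tuft* over wild type, was -0.23 for the crest factors and -0.45 for all genes compared. *Sox10* at the top and *Snai2* at the bottom were 5.52 apart on the log2 scale. *Snai2*, with 0 counts in *tuft*, was set at the floor here, so the distance could be larger.

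**Figure D1:**
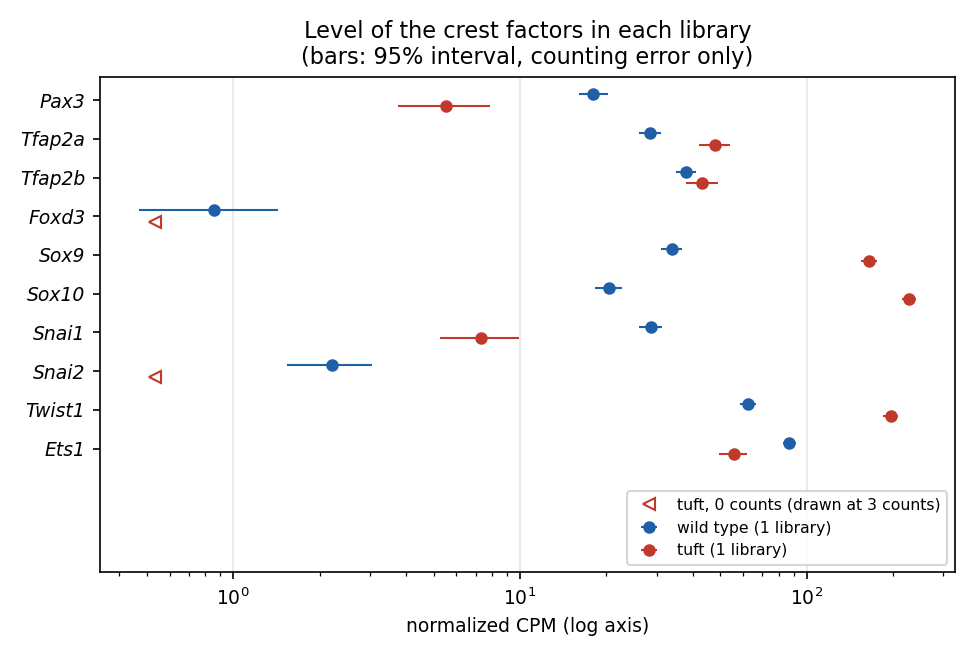
Normalized CPM (log axis) of the 10 crest factors in the 1 *tuft* and the 1 wild-type library, with bars for the 95% counting interval. Open triangles mark *Foxd3* and *Snai2*, which had 0 counts in *tuft* and are drawn at the level of 3 counts, 0.535 normalized CPM. *Sox9*, *Sox10* and *Twist1* lay to the right of wild type, and *Pax3* and *Snai1* to the left.

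Of the border factors, *Pax3* was lower in *tuft*, whereas the AP-2 genes lay near or above wild type. *Pax3* (gene ID 18505, chr1:78101267-78197136), a paired-box factor needed for both cranial neural tube closure and the crest, had 31 *tuft* and 295 wild-type counts. These counts gave 5.52 normalized CPM (3.75 to 7.84) in *tuft* and 18.1 (16.1 to 20.2) in wild type, a level 3.27 times lower in *tuft* (fold 0.306, interval 0.204 to 0.444). Among 3314 genes of similar mean level, those within 2 times of it, 43.7% were also past 2-fold lower, and *Pax3* stood at percentile 33.7 of that band. *Pax7*, its paralog, with overlapping roles in the crest, had 249 *tuft* and 460 wild-type counts (fold 1.58, interval 1.35 to 1.84), and was looked up after its values had been seen. The ratio of *Pax3* to *Pax7* counts within a library needs no scaling between libraries, and it was 0.124 in *tuft* and 0.641 in wild type.

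*Tfap2a* (gene ID 21418, chr13:40713802-40738238), which encodes the AP-2 factor of the neural plate border and of facial ectoderm, had 268 *tuft* and 465 wild-type counts. Its level was 47.8 normalized CPM (42.2 to 53.8) against 28.5 (25.9 to 31.2), a fold of 1.68 (1.44 to 1.95). The non-coding gene *Gm26688* overlaps it, and without a stated strand setting the reads of such neighbors cannot be told apart. *Tfap2b* (gene ID 21419, chr1:19208908-19238845), a related AP-2 gene expressed in the crest, had 242 and 621 counts, or 43.1 (37.9 to 48.9) and 38.0 (35.1 to 41.1) normalized CPM. Its fold of 1.13 had an interval from 0.974 to 1.32 that spans equal levels, and with library totals the fold was 0.863. The ratio of *Tfap2b* to *Tfap2a* was 0.903 (0.756 to 1.08) in *tuft* and 1.34 (1.18 to 1.51) in wild type, so the balance between both genes differed by more than counting error. The summed level of 12 surface ectoderm markers, which share the AP-2 genes' tissue, was 1131 normalized CPM in *tuft* and 762 in wild type. Of these sums *Krt8* gave 385 and 123, and *Krt18* gave 350 and 181. Of the markers 1 was past 2-fold higher, 4 were lower and none was at 0 in *tuft*, with a median log2 fold change of -0.03. The part of surface ectoderm in the *Tfap2a* and *Tfap2b* values was not tested.

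The specifiers held the most elevated factor of the 10. *Sox10* (gene ID 20665, chr15:79154913-79164490), the SoxE factor that crest cells keep as they become glia and pigment cells, had 1277 *tuft* and 334 wild-type counts. The level was 228 normalized CPM (215 to 240) in *tuft* and 20.4 (18.3 to 22.8) in wild type, an 11.1-fold difference (9.86 to 12.6). *Sox10* stood at percentile 97.4 of all genes compared and at percentile 98.8 of 2955 genes of similar mean level, of which 27.3% were past 2-fold higher.

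*Sox9* (gene ID 20682, chr11:112782210-112787757), a SoxE factor of premigratory crest and later of cartilage, had 924 *tuft* and 553 wild-type counts. It reached 165 normalized CPM (154 to 176) in *tuft* and 33.8 (31.1 to 36.8) in wild type, a fold of 4.87 (4.37 to 5.42). The remaining SoxE gene, *Sox8*, had 233 and 226 counts, a fold of 3.00 (2.49 to 3.62), so all 3 SoxE genes were past 2-fold higher in *tuft*, as were 21.3% of all genes compared and 26.4% of genes near the level of *Sox9*. The difference was unequal between them. *Sox10* counts were 1.38 times those of *Sox9* (1.27 to 1.51) in *tuft* but 0.604 times (0.526 to 0.693) in wild type, so the balance of the pair differed by more than counting error. *Sox9* is also made in neuroepithelium, whose 14 markers summed to 1365 normalized CPM in *tuft* and 916 in wild type, with 5 past 2-fold higher, 2 lower and *Hesx1* at 0 in *tuft*. Their median log2 fold change was 0.26. Of the sums *Six3* gave 243 and 58.6, *Nes* 263 and 147, and *Sox2* 120 and 126. The part of neuroepithelium in the *Sox9* value was not tested.

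*Foxd3* (gene ID 15221, chr4:99656299-99658671), a forkhead factor that maintains crest progenitors, had 0 *tuft* and 14 wild-type counts, which is 0.857 normalized CPM (0.468 to 1.44). At the wild-type level 4.81 counts would have fallen in the *tuft* library, and with *tuft* set at the floor *Foxd3* was 1.60 times lower. The counting interval of the fold reached from 0 to 0.878. Of 2143 genes with wild-type counts within 2 times of its own, 73.7% also had 0 counts in *tuft*. At this depth it could not be seen whether the difference was past 2-fold.

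**Figure D2:**
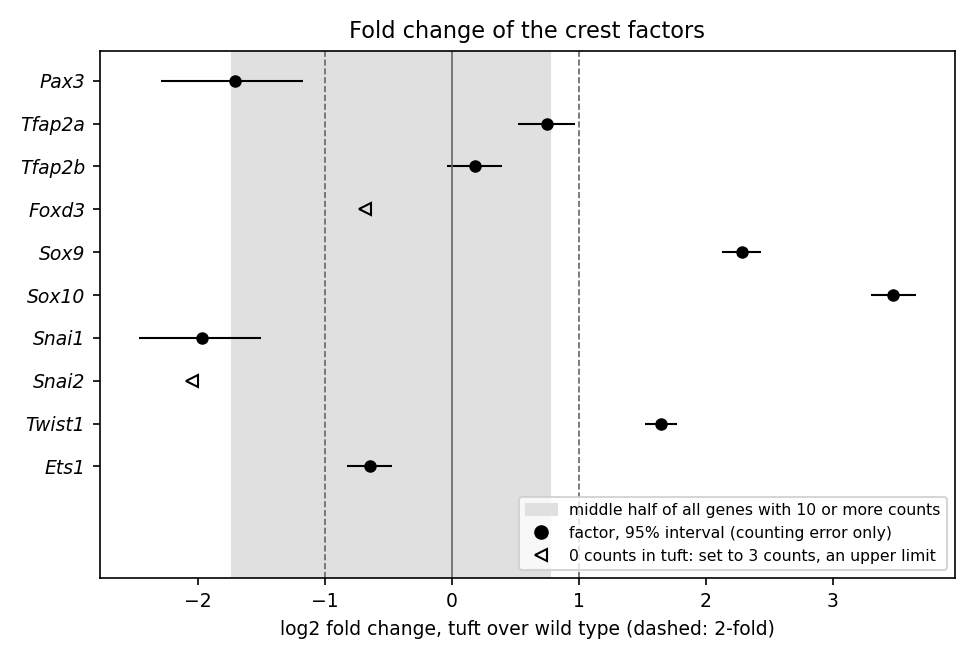
Log2 fold change of each crest factor, *tuft* over wild type, with the 95% counting interval from 1 library per genotype and counts of 0 drawn at the 3-count bound. *Sox10*, *Sox9* and *Twist1* lay beyond 2-fold on the higher side, and *Pax3*, *Snai1* and *Snai2* beyond 2-fold on the lower side.

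The factors of the epithelial-to-mesenchymal transition were split, with *Twist1* higher and both Snail genes lower in *tuft*. *Snai1* (gene ID 20613, chr2:167538195-167542814), a zinc-finger repressor of epithelial genes such as *Cdh1*, had 41 *tuft* and 467 wild-type counts. Its level was 7.31 normalized CPM (5.24 to 9.91) against 28.6 (26.0 to 31.3), 3.91 times lower in *tuft* (fold 0.256, interval 0.181 to 0.352). *Snai1* stood at percentile 22.9 of 3911 genes of similar mean level, of which 36.8% were past 2-fold lower. *Snai2* (gene ID 20583, chr16:14705852-14709395), its close relative, had 0 *tuft* and 36 wild-type counts, or 2.20 normalized CPM (1.54 to 3.05). At the wild-type level 12.4 counts would have fallen in *tuft*, and with *tuft* set at the floor *Snai2* was 4.12 times lower. The counting interval of the fold reached from 0 to 0.314. Of 2173 genes with wild-type counts within 2 times of its own, 55.6% had 0 in *tuft*, so an absence of counts was common at this level.

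*Twist1* (gene ID 22160, chr12:33957671-33959831), a basic helix-loop-helix factor of migrating crest and head mesenchyme, had 1101 *tuft* and 1022 wild-type counts. The level was 196 normalized CPM (185 to 208) in *tuft* and 62.5 (58.8 to 66.5) in wild type, a fold of 3.14 (2.88 to 3.42). *Snai1* counts were 0.0372 of *Twist1* counts (0.0266 to 0.0509) in *tuft* and 0.457 (0.409 to 0.510) in wild type, a 12.3-fold difference that rests on no scaling between libraries. Head mesoderm also makes *Twist1*. Of its 9 markers *Tbx1*, *Meox1*, *Tcf15*, *Tcf21* and *Msc* were at 0 in *tuft*, with 28, 12, 19, 22 and 2 counts in wild type. An absence of counts was common at such levels. Of genes with wild-type counts within 2 times those of *Foxd3*, 73.7% had 0 in *tuft*. The sum of the list was 86.1 normalized CPM in *tuft* and 70.2 in wild type. *Foxc1* alone gave 68.6 and 24.8 of these sums (fold 2.77), and without it, as chosen after the values had been seen, they were 17.5 and 45.4. Of 8 markers compared 2 were past 2-fold higher and 4 lower, with a median log2 fold change of -0.97, and *Foxc2* had a fold of 0.567. The part of head mesoderm in the *Twist1* value was not tested.

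*Ets1* (gene ID 23871, chr9:32636241-32757820), an ETS factor that takes part in cranial crest delamination and is also made by endothelium, had 312 *tuft* and 1423 wild-type counts. Its level was 55.6 normalized CPM (49.6 to 62.1) against 87.1 (82.6 to 91.7), 1.57 times lower in *tuft* (fold 0.638, interval 0.563 to 0.722), and with library totals the fold of 0.486 was past 2-fold. *Ets2*, a paralog looked up after its values had been seen, had a fold of 0.963 (0.842 to 1.10). The 11 endothelial markers summed to 282 normalized CPM in *tuft* and 335 in wild type, with 4 past 2-fold higher, 5 lower, and *Pecam1* and *Erg* at 0 in *tuft*. *Emcn* (fold 4.22) and *Fli1* (3.37) were higher, whereas *Kdr* (0.275) was lower and *Pecam1*, with 0 and 443 counts, had a fold of at most 0.0243, the upper limit of its interval. Without *Cdh5*, the marker with the highest wild-type level, left out after the values had been seen, the sums were 253 and 251. The part of endothelium in the *Ets1* value was not tested.

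**Figure D3:**
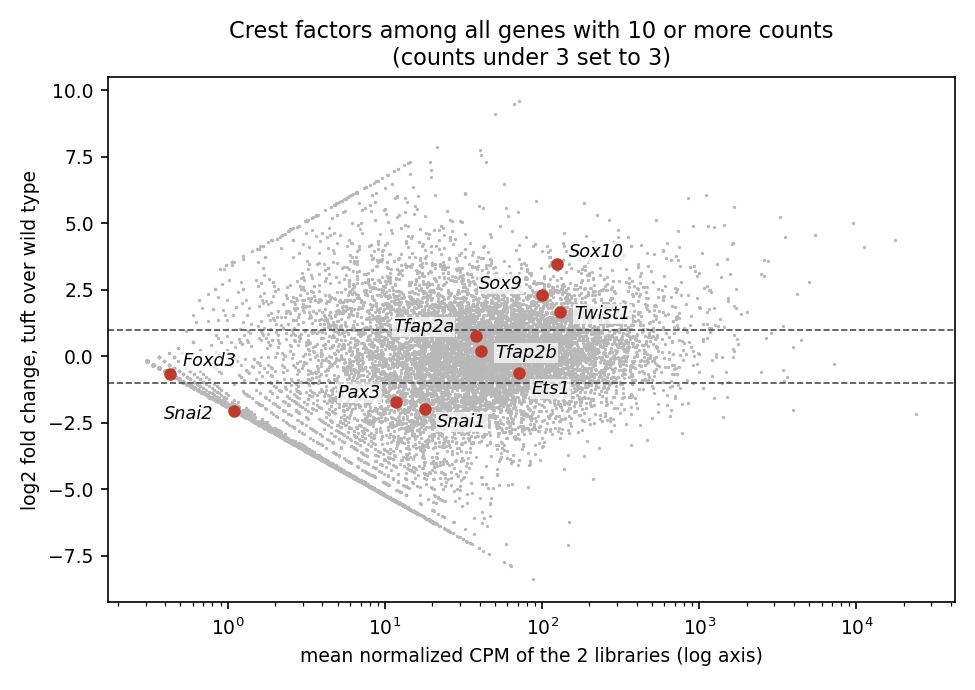
Log2 fold change, *tuft* over wild type, against the mean normalized CPM of both libraries (log axis) for every gene with at least 10 counts, with counts under 3 set to 3. Gray points are all genes, red points the 10 crest factors and dashed lines 2-fold. *Sox10* lay near the upper edge of genes of its level, and *Foxd3* and *Snai2* lay on the lower edge set by the floor.

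Promoter sequence is shown for *Snai1* and *Twist1*, the factors of the transition that differed in opposite directions and had counts in both libraries, because TET1 acts on CpG sites. No methylation was measured in these libraries. The RefSeq promoter table (GRCm38.p6) held starts for *Tfap2a*, *Tfap2b*, *Foxd3*, *Snai1* and *Twist1*, that is 5 of the 10 factors, and the 250 bases before each start were read on the strand of the gene. Both genes shown lie on the plus strand, the *Snai1* window at chr2:167537945-167538194 and the *Twist1* window at chr12:33957421-33957670, and capitals mark each CpG.
*Snai1*: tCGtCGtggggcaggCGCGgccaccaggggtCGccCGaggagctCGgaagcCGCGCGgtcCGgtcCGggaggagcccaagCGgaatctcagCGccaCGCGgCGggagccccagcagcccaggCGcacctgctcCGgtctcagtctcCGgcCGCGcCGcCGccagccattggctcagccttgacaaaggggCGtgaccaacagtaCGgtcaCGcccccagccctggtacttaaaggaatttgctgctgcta
*Twist1*: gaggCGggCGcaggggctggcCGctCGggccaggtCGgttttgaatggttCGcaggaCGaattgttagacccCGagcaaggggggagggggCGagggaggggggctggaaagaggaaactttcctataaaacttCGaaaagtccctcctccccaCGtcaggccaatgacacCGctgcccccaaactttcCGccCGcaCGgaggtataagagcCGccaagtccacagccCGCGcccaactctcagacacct
The *Snai1* window held 27 CpG, placing it at percentile 91.4 of 32851 promoter windows of that length, and the *Twist1* window held 18, at percentile 78.3. The *Foxd3* window held 21, both *Tfap2a* windows 10 and the *Tfap2b* window 5, beside a median of 6 over all windows. The Snail-type E-box, CAGGTG or CACCTG on either strand, occurred 1 time in the *Snai1* window and 0 times in the *Twist1* window, and 17.2% of all windows held it. These are matches of letters only, and no binding was measured.

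The make-up of the crest factor counts differed between the libraries, as shares that need no scaling but are not corrected for gene length. The 10 factors had 4196 *tuft* and 5230 wild-type counts, and their summed level was 748 and 320 normalized CPM, a fold of 2.34 (2.24 to 2.43). Without *Sox9*, *Sox10* and *Twist1* the fold of the sum was 0.784 (0.727 to 0.844). *Sox9* and *Sox10* together held 52.5% of the factors' counts (50.9 to 54.0) in *tuft* and 17.0% (16.0 to 18.0) in wild type. *Ets1*, the largest share in wild type with 27.2% (26.0 to 28.4), held 7.44% (6.66 to 8.27) in *tuft*. The Snail genes together held 9.62% in wild type and 0.977% in *tuft*, where *Foxd3* and *Snai2* each had 0 of 4196 counts.

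**Figure D4:**
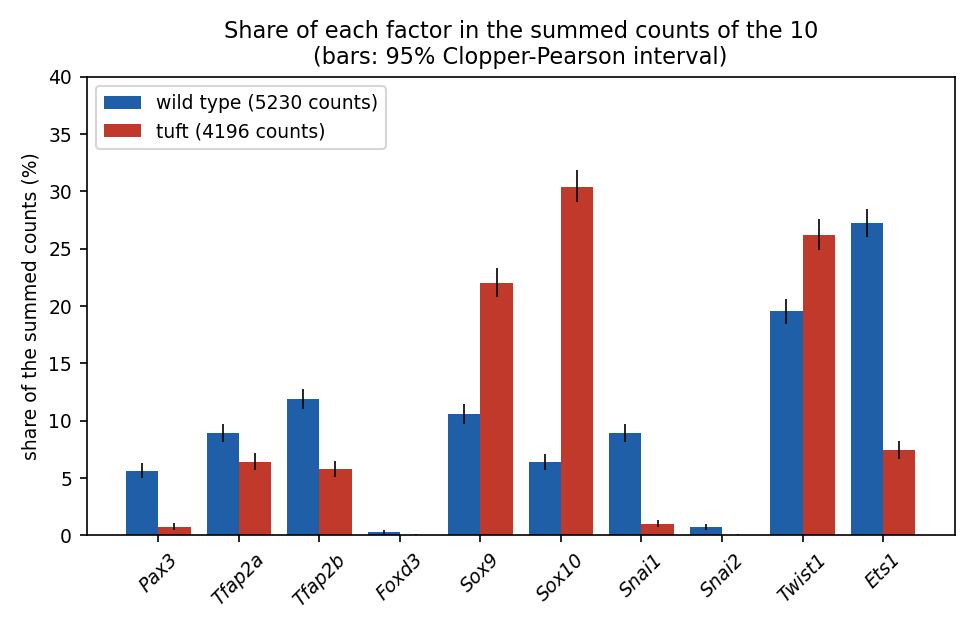
Share of each factor in the summed counts of the 10 crest factors (percent), in 4196 *tuft* and 5230 wild-type counts, with 95% Clopper-Pearson intervals. *Sox10* held 6.39% in wild type and 30.4% in *tuft*, and *Ets1* had the largest wild-type bar.

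Ratios between factors, taken within each library, differed as well. *Sox10* counts were 41.2 times *Pax3* counts (28.9 to 60.9) in *tuft* and 1.13 times (0.965 to 1.33) in wild type. *Ets1* counts were 0.283 of *Twist1* counts in *tuft* and 1.39 times them in wild type, and *Pax3* counts were 0.116 and 0.634 of *Tfap2a* counts.

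Levels between genes were compared as normalized CPM per 1000 exonic bases. In *tuft* the order was *Twist1* (121), *Sox10* (83.9), *Sox9* (39.8), *Tfap2a* (14.7), *Ets1* (8.66), *Tfap2b* (6.75), *Snai1* (4.51) and *Pax3* (0.893), with *Foxd3* and *Snai2* at 0. The intervals of *Tfap2b* and *Snai1* overlapped. In wild type the order was *Twist1* (38.7), *Snai1* (17.6), *Ets1* (13.6), *Tfap2a* (8.78), *Sox9* (8.18), *Sox10* (7.53), *Tfap2b* (5.95), *Pax3* (2.92), *Snai2* (1.08) and *Foxd3* (0.361). There the intervals of *Tfap2a* and *Sox9*, and of *Sox9* and *Sox10*, overlapped. *Twist1* led per length in both libraries, while *Snai1* held the next place in wild type and *Sox10* in *tuft*.

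Other genes of the crest were divided as well. Across 5 lists of 93 genes, 88 passed the count minimum, 22 were past 2-fold higher (25%), 22 lower (25%), and the median log2 fold change was -0.02. Over all genes compared these values were 21.3%, 37.5% and -0.45. The lists were border factors, other crest factors, effector genes, crest-derived head mesenchyme and inducing signals, and each had members on both sides. So did most lists of other tissues, 11 of the 12 lists in all.

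Of 15 border factors compared, 4 were higher and 4 lower, and among those with at least 100 counts in either library *Dlx5* (fold 3.96) and *Gata3* (5.01) were highest and *Msx2* (0.468) and *Zic1* (0.390) lowest. The genes named below from each list were chosen by the same limit on counts. Of 20 other crest factors, 4 were higher and 4 lower. *Sox8* and *Mef2c* (fold 3.70) led, and *Sox5* (0.0679) and *Id1* (0.0730), an inhibitor of basic helix-loop-helix factors, were lowest.

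Of 20 effector genes, which carry out crest migration and fate, 4 were higher and 5 lower. *Ednrb*, the endothelin receptor that SOX10-expressing crest needs, had 214 *tuft* and 56 wild-type counts, a fold of 11.1 (8.26 to 15.2), close in size to that of *Sox10*. *Itga4*, an integrin subunit, had a fold of 4.37. The crest cadherin *Cdh11* had 7 and 1381 counts, a fold of 0.0148 (0.00592 to 0.0305), and the guidance gene *Sema3a*, with 0 and 482, had a fold of at most 0.0224 by its interval. *Erbb3* and *Cdh1* were looked up after their values had been seen. *Erbb3*, a receptor gene that SOX10 activates, had a fold of 0.371 (0.294 to 0.463). *Cdh1*, from the list of surface ectoderm markers, encodes the epithelial cadherin that Snail factors repress. It had 162 *tuft* and 2057 wild-type counts, a fold of 0.229 (0.194 to 0.269), on the same side as *Snai1*. The part of surface ectoderm in the *Cdh1* value was not tested.

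Of 18 genes of crest-derived head mesenchyme, 6 were higher and 5 lower. *Dlx2*, a homeobox gene of branchial arch crest, had a fold of 7.07 and the cartilage collagen gene *Col2a1*, which SOX9 activates, a fold of 2.57. By their intervals *Prrx2*, with 0 and 301 counts, had a fold of at most 0.0359, and *Six2*, with 0 and 157, of at most 0.0692. Of 15 inducing signals, 4 were higher and 4 lower. By the limit on counts *Wnt6* (fold 3.79) and *Bmp4* (3.70) were highest and *Wnt3a* (0.465) and *Dll1* (0.523, within 2-fold) lowest. The other genes past 2-fold higher were *Fgf8* and *Wnt10b*. Those lower were *Wnt1*, *Wnt3* and *Aldh1a2*, with 0 counts in *tuft* and 57, 23 and 61 in wild type.

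Markers of the remaining tissues differed too. In neuroepithelium *Sox1* (fold 3.16) and *Six3* (4.14) were higher, *Pax6* had a fold of 0.514, and *Rax*, with 2 and 389 counts, a fold of 0.0150 (0.00181 to 0.0544). *En1*, with 70 and 2 counts, had a fold of 102 (27.2 to 858) and *En2*, with 31 and 3, of 30.1 (9.39 to 154). Both lie below the limit of 100 counts and were looked up after their values had been seen. *Hesx1*, also below it, had 0 and 36 counts. In surface ectoderm the folds were 3.14 for *Krt8*, 1.93 for *Krt18*, 0.187 for *Krt19* and 0.0660 for *Esrp1*. Primitive blood markers summed to 40733 normalized CPM in *tuft* and 2802 in wild type, with *Hba-a1* at 0 in both and *Gata1* and *Klf1* at 0 in *tuft*. The globin genes *Hbb-y* (fold 32.4) and *Hba-x* (17.1) were higher. *Hbb-bh1*, a further globin gene looked up after its values had been seen, had a fold of 1.08 (1.04 to 1.11). *Alas2* (0.215) was lower and *Gata1*, with 0 and 125 counts, had a fold of at most 0.0872. Of 11 yolk sac endoderm markers, 9 were lower and *Apoa4* was at 0 in *tuft*, and the list summed to 336 and 2046. *Rbp4* had a fold of 0.0134, *Afp* of 0.517 and *Amn* of 2.01, and *Apoa4*, with 0 and 2856 counts, of at most 0.00376. Foregut endoderm markers summed to 271 and 56.2, of which *Nkx2-1* gave 137 and 18.1 and *Shh* 99.3 and 18.0. Of 6 markers compared 3 were past 2-fold higher and 0 lower, and *Pax9*, with 0 and 4 counts, was not compared. *Nkx2-1* had a fold of 7.56, *Shh* of 5.52 and *Foxa2* of 1.96. Below the limit of 100 counts, *Cldn8* had a fold of 3.14 (1.77 to 5.57). The intervals of *Foxa1* (fold 0.658, 0.244 to 1.52) and *Sox17* (1.38, 0.914 to 2.06) spanned equal levels. Whether the *Nkx2-1* and *Shh* reads came from endoderm was not tested. *Sox9* is also made in foregut endoderm, and the part of these tissues in the crest factor values was not tested.

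**Figure D5:**
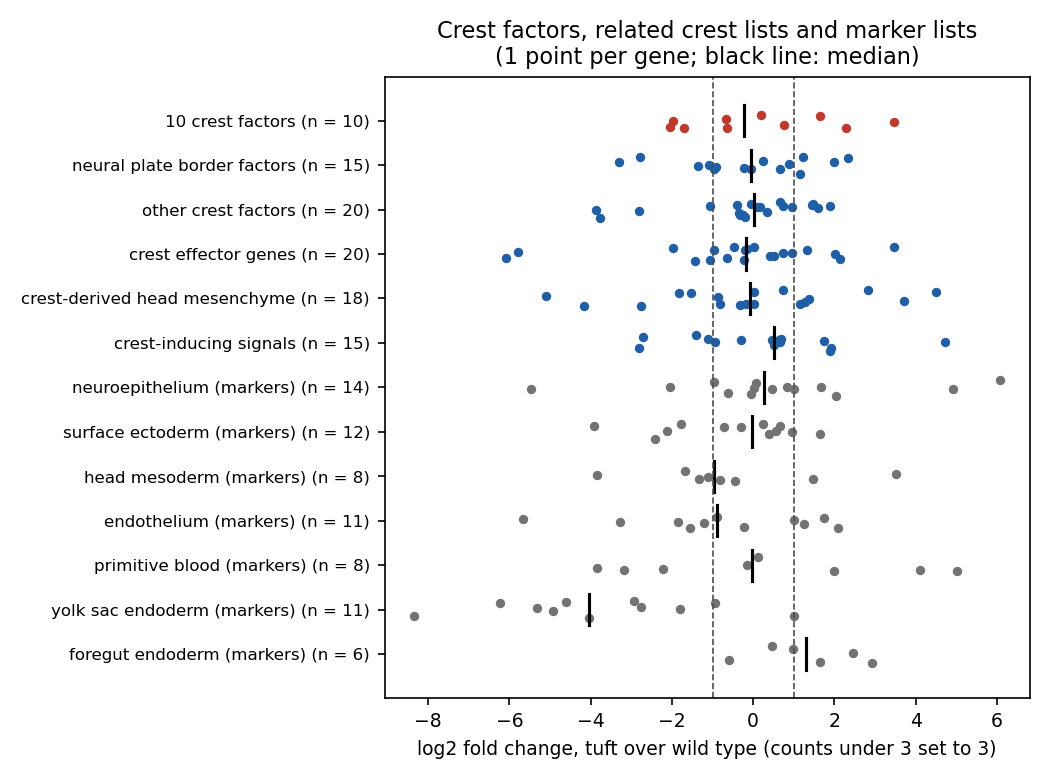
Log2 fold changes, *tuft* over wild type, of the genes of the 10-factor list and the related crest and marker lists, 1 point per gene with the median marked and counts under 3 set to 3. The crest lists spread to both sides of 0, and the yolk sac endoderm markers had the lowest median, -4.03.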

How the data were processed

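RNA of E9 rostrums was analyzed as 1 *tuft* and 1 wild-type column of counts, and 0 columns were left out. RNA of 3 embryos was pooled per library, and the *tuft* column could hold 1 or both of the 2 recorded *tuft* samples. The authors deposited raw counts per gene symbol. They selected poly-A RNA, sequenced single-end reads on an Ion Proton, aligned them to mm10 with TopHat 2.0.14 and Bowtie2 2.2.5 and counted them with htseq-count. The HTSeq version, strand setting and gene model release are not given in the sources used here. The 5 summary lines of each column, were kept out, and alignments that were not unique made up 59.2% of *tuft* and 51.4% of wild-type entries. In *tuft* 11795 genes and in wild type 16914 had a count, and 3 counts correspond to 0.535 and 0.184 normalized CPM.

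TMM factors came from edgeR 4.0.16 (R 4.3.3), with no edgeR test, since no residual degrees of freedom exist. Folds were computed in Python 3.11.15 (pandas 2.3.3, numpy 2.4.6) with Clopper-Pearson intervals from scipy 1.17.1. They were checked on simulated counts that held counting error only. That check was scaled by the median ratio of genes with 100 counts in both libraries, so it did not cover TMM or other error. NOISeq-sim, the method of the study, was not used because its spread comes from simulated libraries. Positions and promoters came from RefSeq GRCm38.p6 and exonic lengths from GENCODE on NCBIM37. The members and lists were chosen with earlier results of these data known. Named genes were the members, *Tet1*, and from each list the 2 highest and 2 lowest folds among genes with at least 100 counts in either library, plus genes with 3 or fewer counts against at least 100. Of these, 1 gene is not reported here. Alternatives were 5 other scalings (TMM without *Rn45s* and globins, library totals, upper quartile, median of ratios, and the median ratio of genes with 100 counts in both libraries), minima of 1 and 50 counts, 0.5 in place of counts of 0, thresholds of 1.5-fold and 4-fold, and leaving out the factor with most counts.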

Additional observations from a re-analysis of the deposited data

How the results depend on the processing

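*Sox9*, *Sox10* and *Twist1* stayed past 2-fold higher and *Pax3*, *Snai1* and *Snai2* past 2-fold lower under the 5 other scalings and with 0.5 in place of counts of 0, and no value past 2-fold changed direction. Relative to TMM, library totals moved the median of all genes by -0.39 and the median ratio of genes with 100 counts in both libraries by -0.34 (log2). With library totals 5 crest factors were past 2-fold lower, *Foxd3* and *Ets1* joining, beside 6427 of 13979 genes. The median of the factors was then -0.63, beside -0.85 for all genes compared. With that median ratio these medians were -0.58 and -0.80. *Tfap2b*, within 2-fold throughout, changed sign under both scalings (-0.21 and -0.16). A minimum of 50 counts, which leaves out *Foxd3* and *Snai2*, gave a median of 0.46, and leaving out *Twist1*, the factor with most counts, gave -0.65 and a share of *Sox9* and *Sox10* of 71.1% in *tuft* and 21.1% in wild type. At 1.5-fold 5 factors were lower and 4 higher, beside 6478 and 3996 of 13979 genes. At 4-fold 1 factor (*Snai2*) was lower and 2 higher, and lower too were 12 genes of the crest lists, with 8 higher, and 3017 of all genes, with 1286 higher. Causes other than the settings themselves were not tested. No paired analysis was possible because 1 column was analyzed per genotype, and for the same reason no library could be left out. Depth limits *Foxd3*, whose wild-type level corresponds to 4.81 counts in *tuft*, while that of *Snai2* corresponds to 12.4. Counts of 0 in *tuft* were also found at higher wild-type levels. Of 4018 genes with wild-type counts within 2 times those of *Pax3*, 7.96% had 0 in *tuft*. The reason for these counts of 0 was not tested, and the intervals cover counting error only.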
